A study of Homo sapiens with 15 samples.

Results

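Clone 6, titled Resistant clone C#6, is a line of BT474 cells resistant to T-DM1 that was single-cell cloned and then kept for 3 months in 5 nM T-DM1. It was compared with parental BT474 cells, which the labels call sensitive. BT474 is a human breast cancer cell line with amplification of the HER2 gene. The members are the 3 arrays titled with this clone and the 3 titled as the parental cell line, 6 of 15 arrays in the series. The other 9 arrays come from resistant clones C#1, C#2 and C#3, with 3 arrays each, named clones 1, 2 and 3 below. All lines grew in DMEM with serum, and total RNA was hybridised to Affymetrix arrays. Clone 6 is 1 clone, no unselected clone was measured, and the sources used here do not state whether T-DM1 was present at harvest. Resistance, single-cell cloning and long culture therefore cannot be told apart in any difference below. The labels call replicates biological but do not say whether they were separate cultures, so p-values measure the spread between these samples.

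T-DM1 is the HER2 antibody trastuzumab joined to a microtubule poison. The antibody binds HER2 at the cell surface, the complex is taken up by endocytosis, and lysosomes digest the antibody and release the poison, which blocks cells in mitosis. Genes of the cell surface, of endosomes and lysosomes, of microtubules and of mitosis are therefore those usually looked at in cells that survive the drug.

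Levels are RMA values on the log2 scale, as deposited, and a difference is clone 6 minus the named line. One probe set per gene symbol was used, the brightest over all 15 arrays, and 12147 genes passed a filter on dim values. A gene was called when limma's Benjamini-Hochberg adjusted p, taken over all 12147 genes, was below 0.05. Errors of differences are standard errors (SE) with n = 3 arrays per line. The arrays of clones 1, 2 and 3 enter the estimate of the spread in every fit. Correlations between arrays ran from 0.985 to 0.990 within clone 6 and from 0.992 to 0.993 within parental cells, against 0.975 to 0.983 between the lines. Luminal breast markers (12 of 14 with a symbol here) were all above the dim filter. Their summed linear signal was 9586.2 to 10256.7 in clone 6 and 10425.7 to 10819.4 in parental cells. Among them EPCAM and TFF3 were called higher, and KRT8 (-0.45), KRT18, GATA3, ESR1 and SPDEF (-0.34) lower. KRT19, KRT7, FOXA1, PGR and XBP1 were not called. Of the markers of other cell types with a symbol, KRT5 of basal cells, DCN and LUM of fibroblasts, and PECAM1 and KDR of endothelium were below the filter, while KRT14 and OXTR (basal), THY1 (fibroblast), and VWF and CLDN5 (endothelial) were above it and not called. Their summed signals in clone 6 were 74.7 to 79.5 for basal, 40.4 to 50.5 for fibroblast and 79.6 to 89.7 for endothelial markers, and in parental cells 68.3 to 71.3, 39.5 to 42.3 and 77.8 to 87.5. The summed signal of the 4 leukocyte markers with a symbol was 190.0 to 304.2 in clone 6 and 107.8 to 127.4 in parental cells, and CD68, a lysosomal protein that BT474 cells also expressed, was the one called marker of that list.

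In clone 6, 2724 genes (22.4% of those tested) differed from parental cells. Of these, 939 (7.73%) were higher and 1785 (14.7%) were lower. A change of at least 2-fold was reached by 72 of the higher and 194 of the lower genes. Among the calls 65.5% were lower as deposited, and 49.7% were lower (1330 higher, 1314 lower) after quantile normalization was repeated, so the balance of directions depends on scaling. The median of all genes was -0.02 as deposited and 0.03 after that step. The upper quartile of the arrays was 5.80 to 5.85 in clone 6 and 5.94 to 5.96 in parental cells. Without 1 array the count ran from 1889 to 2394, and 602 and 612 genes were higher without parental replicates 2 and 3.

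The highest rise belonged to CEACAM5, a carcinoembryonic antigen anchored to the outer membrane of epithelial cells. Its level was 11.47, 11.48 and 11.46 in clone 6, against 8.41, 8.24 and 8.68 in parental cells. The clone 6 values lay above every parental value, a difference of 3.03 (SE 0.15), or 8.15-fold, with a limma adjusted p of 1.26e-09. CEACAM6, its close relative, measured 8.63, 9.02 and 9.09 in clone 6, against 5.97, 6.09 and 6.38 in parental cells, again without overlap (2.77, SE 0.32, adjusted p 1.64e-05 by limma). CEACAM1, a cell-cell adhesion receptor of the same family, measured 7.27, 7.16 and 7.03 in clone 6, against 6.03, 5.81 and 5.83 in parental cells. Its groups did not overlap either, and its difference was 1.26 (SE 0.10, limma adjusted p 4.29e-07). Of 7 tested CEACAM and mucin genes, 3 rose (42.9%, against 7.73% of all genes) and 1 fell (14.3%, against 14.7%). The fall was not called without parental replicate 2 or 3 or clone 6 replicate 2. The median difference was 0.94. That median is the value of CEACAM7, which was not called (adjusted p 0.0647, limma). The CEACAM genes are near-identical in parts of their sequence, so signal shared between probe sets of CEACAM5 and CEACAM6 was not tested.

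Other genes that rose most encode an uptake receptor, a scaffold and a sulfation enzyme. LRP2, the large endocytic receptor megalin, measured 8.77, 8.20 and 8.34 in clone 6, against 5.75, 5.77 and 6.17 in parental cells. IQGAP2, a scaffold that binds actin and small GTPases, measured 6.60, 6.66 and 6.52 in clone 6, against 3.97, 4.14 and 4.20 in parental cells. PAPSS2, which makes the sulfate donor PAPS, was the steadiest of these genes, at 8.90, 8.89 and 8.93 in clone 6, against 6.47, 6.48 and 6.47 in parental cells. In all of them every clone 6 array lay above every parental array. Their differences were 2.54 (SE 0.17) for LRP2, 2.49 (SE 0.11) for IQGAP2 and 2.43 (SE 0.13) for PAPSS2, with limma adjusted p of 3.58e-08, 6.49e-10 and 2.9e-09 in that order. CXCR4, the receptor of the chemokine CXCL12, measured 9.82, 9.89 and 9.46 in clone 6, against 7.42, 7.60 and 7.46 in parental cells, 4.70-fold higher (2.23, SE 0.15, limma adjusted p 3.58e-08). The matrix proteins MGP (2.25, SE 0.16) and FMOD (1.47, SE 0.14), the lipocalin APOD (2.20, SE 0.20), SRARP (2.05, SE 0.17), KRT23 (2.25, SE 0.20), the secreted protease KLK12 (1.97, SE 0.38) and the thioredoxin-like NXN (1.78, SE 0.14) rose as well, all without overlap of the groups.

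The fall of largest size was in NPY1R, a receptor of neuropeptide Y that luminal breast cells make. It measured 5.28, 5.68 and 5.15 in clone 6, against 8.93, 9.33 and 9.49 in parental cells. The groups were far apart, and clone 6 was 14.7-fold lower (-3.88, SE 0.18, limma adjusted p 7.53e-10). FAR2, a reductase that turns fatty acyl-CoA into fatty alcohol, measured 3.94, 3.95 and 4.11 in clone 6, against 7.60, 7.50 and 7.35 in parental cells. It was 11.2-fold lower (-3.48, SE 0.13, limma adjusted p 5.47e-11). NRK, a kinase of the germinal centre kinase family, measured 3.44, 3.06 and 3.60 in clone 6, against 6.55, 6.64 and 6.59 in parental cells, a difference of -3.23 (SE 0.26). GPC6, a cell surface heparan sulfate proteoglycan, measured 4.28, 4.40 and 4.16 in clone 6, against 7.31, 7.18 and 7.35 in parental cells, a difference of -3.00 (SE 0.16). Clone 6 lay below parental cells in every array for these genes. NRK lay below the 40th percentile, the level used to call a value dim, in clone 6 replicates 1 and 2 and just above it in replicate 3 (3.60, against 3.59).

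GATA3, a transcription factor of luminal identity, measured 6.60, 6.78 and 6.92 in clone 6, against 8.98, 9.17 and 9.22 in parental cells, 5.12-fold lower (-2.36, SE 0.15, limma adjusted p 1.96e-08). CFL2, an actin-severing cofilin, measured 3.55, 4.14 and 3.73 in clone 6, against 6.43, 6.49 and 6.69 in parental cells (-2.73, SE 0.19). DSG2, a desmosomal cadherin, measured 5.57, 6.16 and 5.78 in clone 6, against 7.96, 7.89 and 7.95 in parental cells (-2.09, SE 0.15). These groups did not overlap, and CFL2 lay below the 40th percentile in clone 6 replicate 1 (3.55, against 3.62). FSTL5 (-2.90, SE 0.12), DPYSL5 (-2.74, SE 0.21), TMTC1 (-2.69, SE 0.15), the adhesion molecule NCAM2 (-2.60, SE 0.26), the membrane peptidase MME (-2.42, SE 0.18) and SHISA2 (-2.18, SE 0.17) also fell. None of the genes given with values so far lost its call against parental cells when 1 of the 6 arrays was left out, apart from CEACAM7, which had none. Across all genes, every clone 6 array lay above every parental array in 2014 genes (16.6%) and below in 2925 (24.1%).

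**Figure D1:**
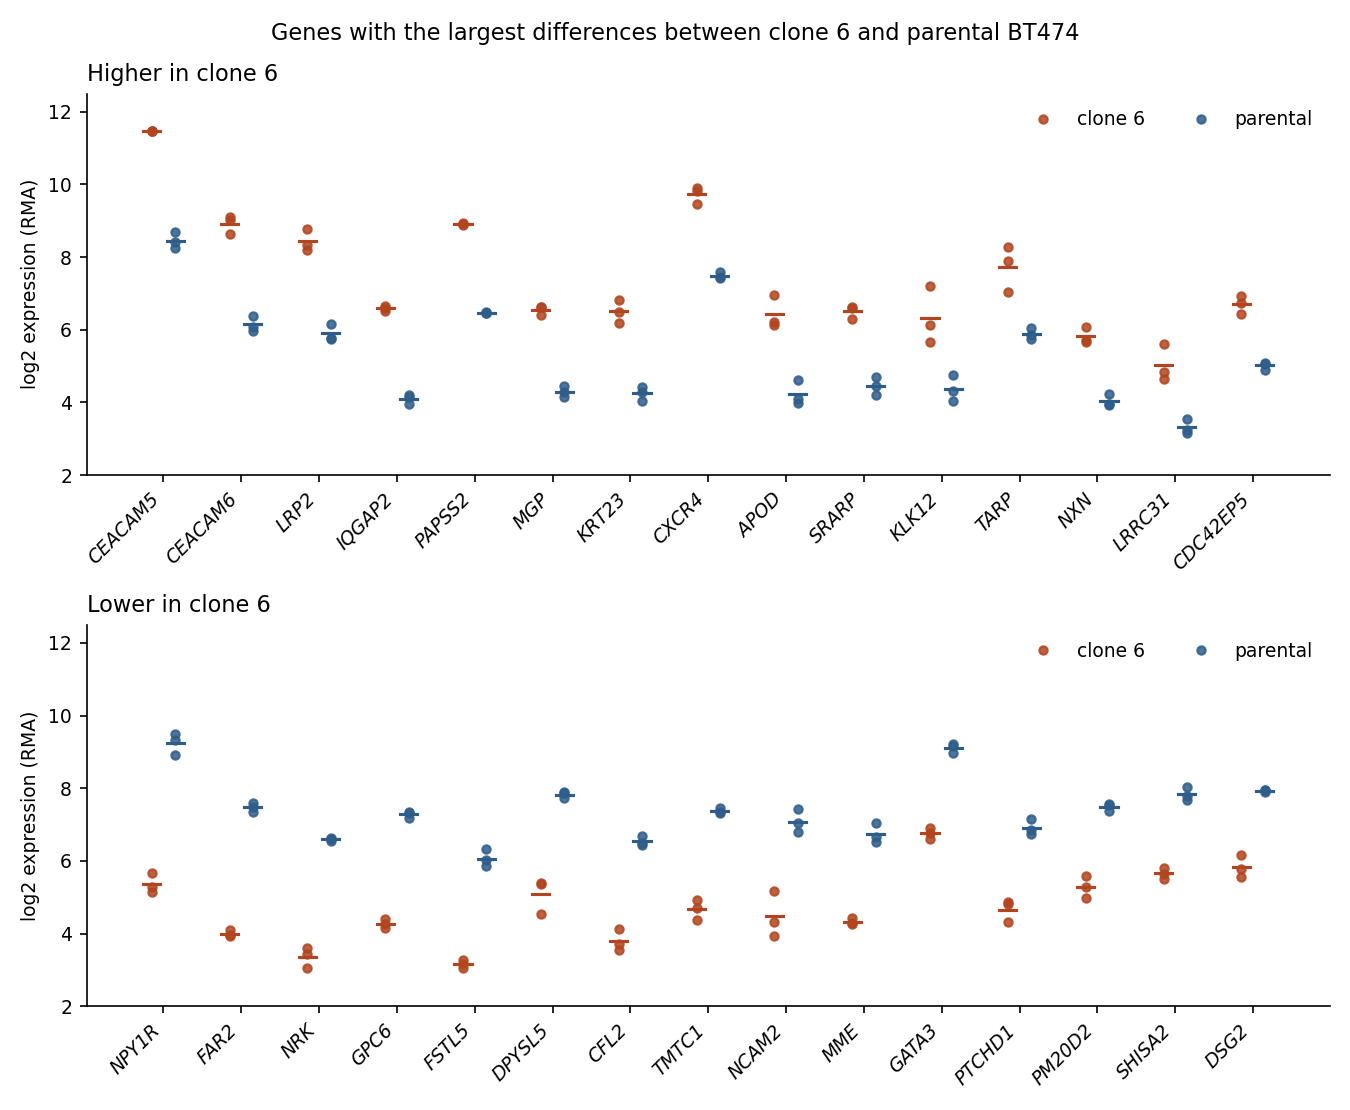
Level (log2 RMA signal, vertical axis) in each array (points) of the 15 genes with the highest rise (upper panel) and the 15 with the deepest fall (lower panel), with clone 6 left of parental and a bar at each group mean. CEACAM5 stands at 11.46 to 11.48 in clone 6 and NPY1R at 5.15 to 5.68, both clear of the parental points.

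How far clone 6 stood from the other resistant clones was tested directly. Clone 6 differed from clone 1 in 1540 genes (12.7%; 681 higher, 859 lower), from clone 2 in 1356 (11.2%; 665 higher, 691 lower) and from clone 3 in 1095 (9.01%; 493 higher, 602 lower). After renewed quantile normalization higher genes were the more numerous, at 785 against 757, 728 against 662 and 590 against 529 for clones 1, 2 and 3, so these splits depend on scaling too. The comparison with clone 1 gave 1014 genes, 401 of them higher, without clone 6 replicate 3, and 444 higher without clone 6 replicate 2. Against clones 2 and 3 the higher genes numbered 396 and 319 without clone 6 replicate 3. Of the 939 genes higher than in parental cells, 471 (50.2%) were not called different from any other clone, while 96 (10.2%) differed from all 3 in either direction. Of the 1785 lower genes, 987 (55.3%) were not called different from any other clone and 152 (8.52%) differed from all 3. A missed call does not show that the clones are alike. CXCR4 is an example: clone 6 minus clone 1, 2 and 3 was 0.18, 0.07 and 0.32, with limma adjusted p of 0.499, 0.844 and 0.213. NPY1R was also near the other clones, at -0.43, -0.45 and -0.77 relative to clones 1, 2 and 3, and only the last was called (adjusted p 0.0124, limma).

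A gene was counted as set apart when clone 6 differed from parental cells and from each of clones 1, 2 and 3 in one direction. There were 90 such genes higher in clone 6 (0.741%) and 145 lower (1.19%), or 112 and 119 after renewed quantile normalization. There were 54 higher without clone 6 replicate 3 and 94 lower without clone 6 replicate 2. PAPSS2 exceeded clones 1, 2 and 3 by 2.58, 3.06 and 1.93, and MGP, an inhibitor of calcification, exceeded them by 2.73, 2.64 and 1.54. NXN exceeded them by 1.45, 1.40 and 1.36, LRRC31 by 1.44, 1.29 and 1.40, and APOD by 1.38, 1.99 and 1.22. LRRC31 itself measured 5.62, 4.65 and 4.84 in clone 6, against 3.24, 3.55 and 3.16 in parental cells, and the groups did not overlap. Each parental value of LRRC31 was dim, below the 40th percentile of its array (3.56 to 3.58). These genes stayed set apart when any 1 of the 15 arrays was left out.

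Among the genes set apart by a fall, ANKRD30A, a breast differentiation antigen, measured 3.79, 3.17 and 3.55 in clone 6, against 5.31, 5.14 and 5.04 in parental cells. It lay -2.17, -2.15 and -2.18 from clones 1, 2 and 3. In clone 6 replicates 2 and 3 ANKRD30A was below the 40th percentile (3.61 and 3.59), the level used to call a value dim. TNC, the matrix glycoprotein tenascin C, measured 4.93, 5.19 and 5.25 in clone 6, against 6.84, 6.48 and 6.52 in parental cells, and lay -1.84, -1.69 and -1.70 from clones 1, 2 and 3. CD47, the surface signal that holds back phagocytes, measured 5.93, 5.87 and 6.14 in clone 6, against 7.80, 7.79 and 7.65 in parental cells. Its distances from clones 1, 2 and 3 were -1.58, -1.70 and -1.36. ELF4, an ETS family transcription factor, measured 5.71, 5.69 and 5.76 in clone 6, against 7.65, 7.47 and 7.46 in parental cells, with distances of -1.19, -1.25 and -1.29. The nuclear body protein SP100 lay -1.37, -1.10 and -1.32 from clones 1, 2 and 3, the acyltransferase MBOAT1 -1.16, -1.42 and -1.03, and UNC13D, which primes secretory granules for release, -1.07, -1.03 and -1.48. Each of these genes stayed set apart without any 1 of the 15 arrays.

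Some leading genes followed other patterns. Clone 6 exceeded clone 3 in CEACAM5 by 4.34 (limma adjusted p 2.11e-11), while its differences of 0.03 from clone 1 and 0.31 from clone 2 were not called (limma adjusted p 0.932 and 0.221). Although below parental cells, GATA3 was higher in clone 6 than in clone 1 by 0.53 (limma adjusted p 0.023) and than in clone 2 by 0.79 (limma adjusted p 0.00191). It was lower than in clone 3 (-1.59, limma adjusted p 3.96e-06). FAR2 lay -3.56 and -3.42 from clones 1 and 2 and -0.58 from clone 3 (limma adjusted p 0.00751). TMTC1 lay -1.76 and -1.99 from clones 1 and 2 but 0.29 from clone 3, which was not called (limma adjusted p 0.291). KRT23 passed against clone 1 by a small margin (0.64, limma adjusted p 0.0435). It was not set apart without parental replicate 1 or 3, clone 1 replicate 2 or 3, clone 3 replicate 2, or clone 6 replicate 1 or 2, where its smallest difference ran from 0.48 to 0.80 over all 15 omissions and its adjusted p reached 0.191. CEACAM6 (smallest difference 1.20, range 0.87 to 1.44) was not set apart without clone 1 replicate 1 or clone 6 replicate 2 or 3, with an adjusted p of up to 0.0951.

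**Figure D2:**
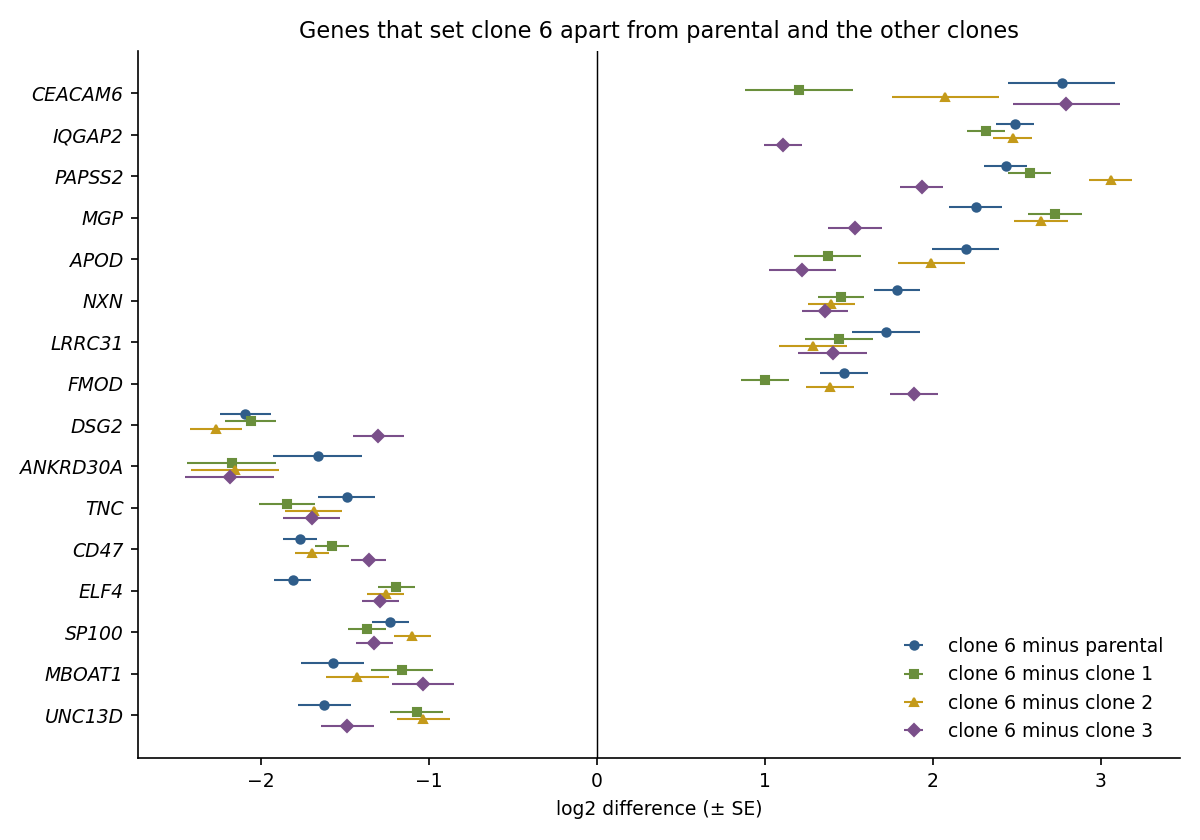
Difference on the log2 scale (horizontal axis; points, with bars of 1 SE) of clone 6 minus clones 1, 2 and 3 and minus parental cells for the 8 higher and 8 lower genes that stand farthest from all 4 lines. PAPSS2 is at least 1.93 above each line and ANKRD30A at least 1.66 below each.

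Mitotic genes were lower in clone 6. The lists of mitotic entry, the kinetochore, mitotic motors and cytokinesis together name 67 genes, of which 52 were tested. In clone 6, 28 of the 52 (53.8%) were called lower and 1 higher, with a median difference of -0.44, against 14.7% lower and a median of -0.02 over all genes. The call held without each of the 6 arrays in 19 of the 28, and the count of lower genes ran from 21 to 25 when 1 array was left out. After renewed quantile normalization 24 were lower and the median was -0.39. The groups did not overlap, with clone 6 lower, in 36 of the 52, against 2925 of all 12147 genes (24.1%).

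Of the genes of mitotic entry 9 of 12 fell, with a median of -0.63. CCNB1 and CCNB2, the B-type cyclins that activate CDK1, measured 7.70, 7.58 and 7.58 (CCNB1) and 7.56, 7.67 and 7.51 (CCNB2) in clone 6. In parental cells CCNB1 measured 8.53, 8.52 and 8.58, and CCNB2 8.48, 8.50 and 8.59. The differences were -0.92 (SE 0.10, limma adjusted p 1.04e-05) for CCNB1 and -0.95 (SE 0.11, limma adjusted p 1.93e-05) for CCNB2. WEE1, the kinase that holds CDK1 inactive, measured 8.80, 8.23 and 8.78 in clone 6, against 9.88, 9.90 and 9.82 in parental cells (-1.26, SE 0.16). FOXM1, the transcription factor of late cell cycle genes, differed by -0.96 (SE 0.17) and PLK1, a kinase of mitotic entry and spindle assembly, by -0.70 (SE 0.14). CDK1 itself was not called (-0.37, limma adjusted p 0.0882). In the kinetochore list 8 of 19 fell, and 2 of these calls, KNL1 and CDC20, held without each array. The count there was 5 without parental replicate 1 or 2, 3 without parental replicate 3 and 4 without clone 6 replicate 1. KNL1, the scaffold of the outer kinetochore, fell by 1.00 on the log2 scale (SE 0.14). CDC20, the activator of the anaphase-promoting complex, measured 8.16, 8.76 and 8.54 in clone 6, against 9.70, 9.59 and 9.70 in parental cells (-1.18, SE 0.14, limma adjusted p 1.97e-05).

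Among motors and spindle proteins 10 of 17 fell, with a median of -0.49, and 1 rose. KIF20A, a kinesin of the central spindle, measured 6.92, 7.35 and 7.22 in clone 6, against 8.27, 8.41 and 8.37 in parental cells (-1.18, SE 0.13, limma adjusted p 9.99e-06). KIF18A (-1.05, SE 0.17), which limits the length of kinetochore microtubules, KIF18B (-0.81, SE 0.16), KIF23 (-0.77) and PRC1 (-0.61) fell too. KIF22 was the called exception, at 0.42, but its groups overlapped and its call ended without parental replicate 2 or 3 or clone 6 replicate 2 or 3, with values of 0.32 to 0.55 over the omissions. Of 8 cytokinesis genes 5 fell (median -0.60), among them CEP55 (-0.68) and AURKB (-0.59), and all 5 calls held without each array.

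Against the other clones the mitotic genes were not alike. Of the 52 tested, clone 6 was lower than clone 1 in 22, lower than clone 2 in 19 and lower than clone 3 in 3, and higher than each in 1. Over all 12147 genes, clone 6 was lower than clones 1, 2 and 3 in 859, 691 and 602 genes. It was higher than them in 681, 665 and 493. CCNB2 lay -0.97 and -0.92 from clones 1 and 2 and 0.06 from clone 3 (limma adjusted p 0.834). KIF20A was set apart, at -0.68, -0.80 and -0.90 from clones 1, 2 and 3, and stayed so without any 1 of the 15 arrays. CDC20 was set apart too (-0.54, -0.75 and -0.56), but not without clone 1 replicate 1, clone 3 replicate 1 or clone 6 replicate 1, where the smallest difference over all omissions ran from -0.67 to -0.37.

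**Figure D3:**
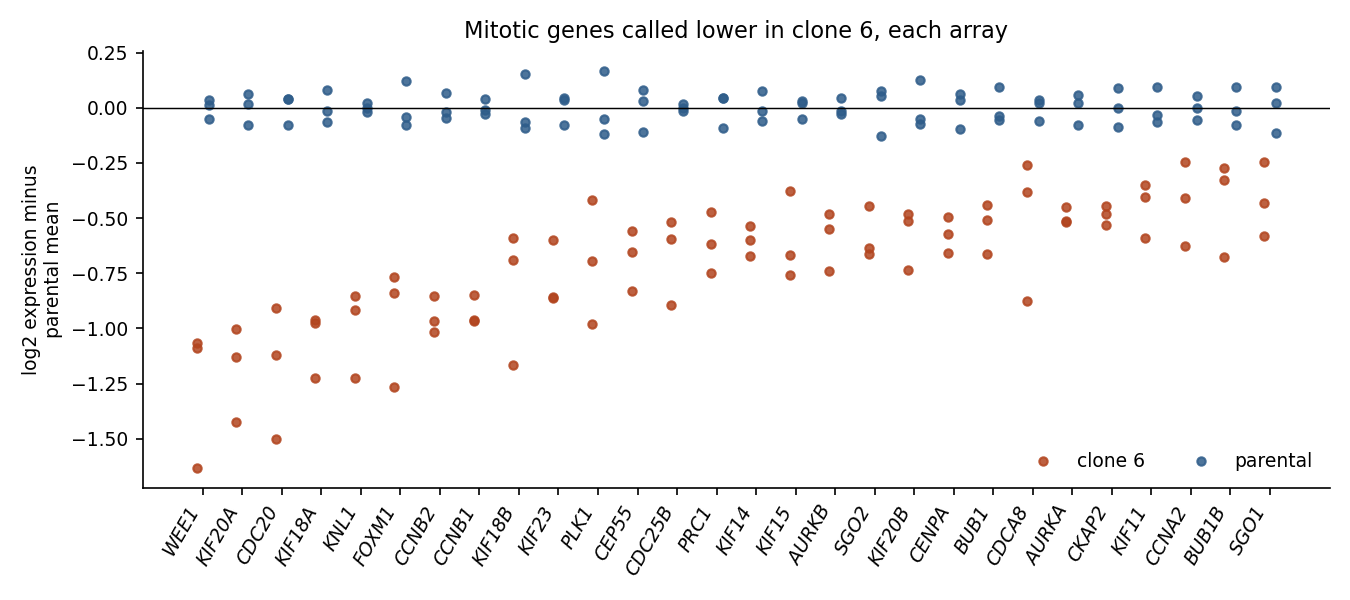
Level of each clone 6 and parental array minus the parental mean (log2, vertical axis) for the 28 mitotic genes called lower in clone 6 (horizontal axis), clone 6 left of parental. The clone 6 points lie below the parental points, and the average of WEE1 is -1.26.

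Many genes of late cell cycle stages carry CCAAT boxes and a CHR element (TTTGAA) just before the start of transcription, bound by the factor NF-Y and by the MuvB complex. The promoters of CDC20, CCNB2 and PLK1, genes that fell in clone 6, show this layout. They are printed from RefSeq (GRCh38.p14, 250 bases before the annotated start, plus strand), with each CCAAT box and each element TTTGAA, or the reverse form TTCAAA of the element, in capitals. They lie at chr1:43358731-43358980 for CDC20, chr15:59104896-59105145 for CCNB2 and chr16:23678639-23678888 for PLK1.
CDC20: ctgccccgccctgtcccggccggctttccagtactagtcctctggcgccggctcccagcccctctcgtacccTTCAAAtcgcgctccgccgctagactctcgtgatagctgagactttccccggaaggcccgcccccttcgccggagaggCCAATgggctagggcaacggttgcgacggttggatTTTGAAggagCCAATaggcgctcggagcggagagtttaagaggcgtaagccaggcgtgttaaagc
CCNB2: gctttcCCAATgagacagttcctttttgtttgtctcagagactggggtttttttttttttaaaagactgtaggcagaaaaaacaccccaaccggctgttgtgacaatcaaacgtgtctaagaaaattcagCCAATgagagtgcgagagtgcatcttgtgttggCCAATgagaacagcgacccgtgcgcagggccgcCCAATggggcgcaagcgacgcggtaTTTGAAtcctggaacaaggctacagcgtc
PLK1: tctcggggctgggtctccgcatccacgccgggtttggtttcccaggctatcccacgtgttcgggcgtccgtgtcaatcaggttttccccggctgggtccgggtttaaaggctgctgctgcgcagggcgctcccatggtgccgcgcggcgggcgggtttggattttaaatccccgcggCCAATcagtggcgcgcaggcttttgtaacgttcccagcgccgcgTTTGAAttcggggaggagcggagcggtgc
Counted from the start, the boxes of CCNB2 begin at -244, -120, -87 and -54 and its element at -29. In PLK1 the box begins at -73 and the element at -29. In CDC20 the boxes begin at -100 and -55, one element at -65 and the reverse form at -178.

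A promoter was in the table for 44 of the 52 tested mitotic genes. CCAAT or its reverse ATTGG was found in 19 of 24 promoters (79.2%) of genes called lower in clone 6 and in 14 of 20 (70%) of those not called lower. TTTGAA or TTCAAA was found in 12 of 24 (50%) and 9 of 20 (45%) of these, and both motifs in 10 (41.7%) and 8 (40%). Over the 9176 tested genes with a promoter the shares were 34.3% for CCAAT, 8.96% for TTTGAA and 3.73% for both. The motifs were thus about as frequent in mitotic genes that were called as in those that were not. A match describes letters in this window and says nothing of binding.

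Genes of S phase and the replication fork were called in 4.76%, against 22.4% of all genes. Of 21 tested (median 0.14), 1 was called, MCM6, a subunit of the replicative helicase. Without clone 6 replicate 1 there were 3 calls, all higher, and without clone 6 replicate 3 the median was -0.05. It measured 9.47, 9.63 and 10.15 in clone 6, against 9.03, 8.63 and 8.69 in parental cells, without overlap (0.97, SE 0.23, limma adjusted p 0.00574). Its partners MCM2 (0.09), MCM3 (-0.04), MCM4 (-0.20) and MCM7 (0.14), and the sliding clamp PCNA (0.24), were not called. Among 27 microtubule-associated proteins 2 rose and 3 fell (median -0.02), a share of 18.5% called, below the 22.4% of all genes. Without parental replicate 2 or 3 or clone 6 replicate 1 or 2, 1 rose, and the median was 0.05 after renewed quantile normalization. MAP7, which recruits kinesin to microtubules, rose by 0.62 (SE 0.11) and CKAP5, a microtubule polymerase, fell by 0.57 on the log2 scale (SE 0.09). Tubulin genes were not analysed here.

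Cell adhesion genes moved in both directions. Among 20 desmosomal and keratin genes 7 fell (35%, against 14.7% of all genes) and 2 rose (10%, against 7.73%), with a median of -0.04. Without parental replicate 3 or clone 6 replicate 2, 1 rose. Besides DSG2, the desmosomal plaque protein PKP2 measured 6.82, 7.23 and 7.15 in clone 6, against 8.16, 8.19 and 8.11 in parental cells (-1.09, SE 0.12, limma adjusted p 8.19e-06). JUP, the plaque protein plakoglobin, measured 9.51, 9.90 and 9.66 in clone 6, against 10.34, 10.37 and 10.44 in parental cells (-0.69, limma adjusted p 0.000521). The groups overlapped in none of them, and PKP2 was set apart from the other clones. The keratins KRT80 (-1.01, SE 0.20) and KRT18 (-0.57, SE 0.13; -0.32 in its other probe set) fell, while the desmoplakin gene DSP (0.25) and PKP3 (0.14) were not called. Of 19 adherens and tight junction genes (median -0.04; 26.3% called, near the 22.4% of all genes) 2 rose, EPCAM (0.50) and MARVELD3 (0.66), and 3 fell, among them LSR (-0.73), a protein of tricellular junctions, and NECTIN3 (-0.66).

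Among actin regulators 8 of 24 were lower (33.3%, against 14.7% of all genes) and 3 higher (12.5%, against 7.73%), with a median of -0.12. Without parental replicate 3 or clone 6 replicate 1, 5 were lower. DIAPH2, a formin that elongates actin filaments, measured 5.65, 5.99 and 5.87 in clone 6, against 7.48, 7.71 and 7.67 in parental cells (-1.78, SE 0.13, limma adjusted p 1.41e-07), and it was set apart from the other clones without any 1 array. LIMK1 (-0.72, SE 0.14), the kinase that inactivates cofilin, and CNN2 (-1.02, SE 0.14) fell as CFL2 did, though the other probe set of CNN2 differed by -0.32 and the mean of both by -0.67, whereas the other cofilin gene CFL1 (-0.22) was not called. The filament-severing proteins SCIN (1.05, SE 0.16) and GSN (0.51, SE 0.11) rose. In the matrix list 6 of 15 fell (40%) and 2 rose (median -0.15), or 1 rose without parental replicate 1 or 3 or clone 6 replicate 1. The glypicans went apart: GPC4 measured 8.37, 8.64 and 8.60 in clone 6, against 7.03, 6.84 and 7.13 in parental cells, and rose by 1.54 (SE 0.13, limma adjusted p 7.62e-07), while GPC6 fell. The syndecan SDC2 (-1.55, SE 0.13), the metalloproteinase inhibitor TIMP1 (-1.21, SE 0.20) and the adhesive glycoprotein THBS1 (-0.65, SE 0.13) fell. Integrin genes were not analysed here.

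Luminal regulators and oestrogen targets gave 6 lower (25%, against 14.7% of all genes) and 3 higher genes (12.5%, against 7.73%) of 24, with a median of -0.28. The lower genes numbered 10 without clone 6 replicate 1. The falls of ESR1, GATA3, AGR2 and ANKRD30A and the 3 rises held without each array. ESR1, the oestrogen receptor, measured 7.89, 7.70 and 7.81 in clone 6, against 8.24, 8.47 and 8.35 in parental cells (-0.55, SE 0.14, limma adjusted p 0.00896). PGR, a gene induced through ESR1, was not called (-0.63, limma adjusted p 0.121), and its groups overlapped. TFF1, a trefoil peptide that oestrogen also induces, measured 12.62, 12.12 and 12.22 in clone 6, against 10.95, 10.63 and 10.86 in parental cells, so it moved opposite to ESR1 (1.51, SE 0.14, limma adjusted p 1.25e-06). TFF3 (1.24, SE 0.17) and BCAS1 (1.41, SE 0.14) rose as well, and AGR2 (-0.78, SE 0.14) fell. FOXA1 (0.07) and XBP1 (0.06) were not called.

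Apocrine and secretory products were called in 12 of 20 (60%, against 22.4% of all genes), 9 higher and 3 lower, or 5 lower without clone 6 replicate 1, with a median of 0.32. The kallikrein proteases KLK6 (0.61), KLK11 (0.91, SE 0.16) and KLK12, the lipocalin APOD, CLCA2 (1.30, SE 0.20) and the protease inhibitor SLPI (0.63, SE 0.14) rose and kept their calls without each array. Other secreted proteins fell: LTF, lactoferrin, by 1.24 (SE 0.19), CLU, clusterin, by 1.00 (SE 0.16), and PIP, the prolactin-induced protein, by 1.15 on the log2 scale. PIP measured 4.31, 4.33 and 4.27 in clone 6, against 5.44, 5.56 and 5.37 in parental cells, without overlap.

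In the family of HER receptors, ligands and adaptors 6 of 17 fell (35.3%, against 14.7% of all genes), with a median of -0.10. ERBB3, the partner of HER2 (0.23, limma adjusted p 0.205), and EGFR (0.16, limma adjusted p 0.455) were not called, and ERBB4 fell by 0.64 on the log2 scale (SE 0.14). GRB7, an adaptor that binds HER2 and lies next to its gene on chromosome 17, measured 9.37, 9.22 and 9.34 in clone 6, against 10.40, 10.28 and 10.41 in parental cells (-1.05, SE 0.13, limma adjusted p 2.54e-05). It was lower than in clone 2 (-0.84, limma adjusted p 0.000476) and clone 1 (limma adjusted p 9.96e-05) and not called against clone 3 (-0.19, limma adjusted p 0.456). The ligands NRG3 (-0.67) and BTC (-0.48) fell. The HER2 gene itself was not analysed here. Among feedback and PI3K genes 4 of 25 fell and 2 rose, or 1 without clone 6 replicate 3 (median 0.02; 24% called, near the 22.4% of all genes), and IRS1, the main adaptor of insulin and IGF1 receptors, fell (-1.54, SE 0.24) while the insulin receptor INSR rose (0.53, SE 0.12). TSC1, a brake on mTORC1, measured 7.37, 7.52 and 7.56 in clone 6, against 8.03, 8.02 and 8.15 in parental cells, and was set apart from all other clones (-0.56, -0.46 and -0.62 from clones 1, 2 and 3).

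Along the uptake route of the drug genes moved in both directions. Of its 50 tested genes 4 (8%) were called with a change of at least 2-fold, against 2.19% of all genes. Of 23 endocytosis and early endosome genes 5 fell and 1, LRP2, rose (median -0.10; 26.1% called, against 22.4% of all genes), and 3 rose without clone 6 replicate 1. EPN1, an adaptor of clathrin coats, fell by 0.86 (SE 0.12), and EEA1, which tethers early endosomes, fell by 0.57 on the log2 scale (SE 0.14). Of 27 lysosomal genes 5 rose and 5 fell (median 0.04; 37% called). Without clone 6 replicate 3 there were 3 of each and the median was -0.01. The rises numbered 3 without parental replicate 2, and the falls 3 without parental replicate 1 or 3. TPP1, a lysosomal peptidase, measured 7.34, 7.29 and 7.27 in clone 6, against 8.40, 8.49 and 8.49 in parental cells, a clear separation (-1.16, SE 0.09, limma adjusted p 2.75e-07). CTSC, cathepsin C, measured 5.09, 5.17 and 4.96 in clone 6, against 6.14, 6.24 and 6.39 in parental cells (-1.18, SE 0.11). LGMN, the asparaginyl protease legumain (0.62, SE 0.13), the sphingolipid activator precursor PSAP (0.37, SE 0.09) and CD68 (1.30, SE 0.32) rose. CTSB (-0.10, limma adjusted p 0.543) and LAMP1 (0.04, limma adjusted p 0.773) were not called.

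Detoxification genes gave 8 higher (33.3%, against 7.73% of all genes) and 3 lower of 24 (median 0.04), with 5 higher without clone 6 replicate 3 and 1 lower without parental replicate 1. MVP, the major vault protein, measured 7.93, 8.19 and 8.04 in clone 6, against 6.78, 6.65 and 6.70 in parental cells, 2.54-fold higher (1.35, SE 0.14, limma adjusted p 7.32e-06). GPX2, a glutathione peroxidase of epithelia, measured 6.56, 7.19 and 6.90 in clone 6, against 5.42, 5.52 and 5.13 in parental cells (1.53, SE 0.24). The glutathione transferases GSTA4 (0.81, SE 0.12) and GSTM3 (0.61) rose, and the redox protein TXN fell (-0.40, SE 0.09). Cholesterol synthesis and uptake gave 6 higher of 18 (33.3%; median 0.14), yet 3 were higher without parental replicate 1 or 2 or clone 6 replicate 1, and 1 of these calls, MVD (0.71, SE 0.14), held without each array. Fatty acid enzymes gave 5 higher and 5 lower of 26 (median -0.03; 38.5% called, against 22.4% of all genes), with 3 lower without clone 6 replicate 3. The higher and the lower genes each made up 19.2%, against 7.73% and 14.7% of all genes. ACACB, which makes the malonyl-CoA that limits fatty acid entry into mitochondria, rose by 0.91 (SE 0.12) and was set apart, and AGPS, of ether lipid synthesis, rose by 0.92 (SE 0.15), while FAR1 fell together with FAR2 (-0.67, SE 0.13). For LDHB, a lactate dehydrogenase subunit, levels were 4.55, 3.87 and 4.29 in clone 6, against 6.12, 5.81 and 5.99 in parental cells, and it was set apart (-1.74, SE 0.15, limma adjusted p 9.6e-07). HK2, a hexokinase induced by hypoxia, rose by 0.87 (SE 0.11), as did the hypoxia-induced BNIP3 (0.69, SE 0.16), ANKRD37 (0.88, SE 0.16) and EGLN3 (0.66, SE 0.15). In all, 4 of 20 glycolysis and hypoxia genes rose (20%, against 7.73% of all genes) and 5 fell (25%, against 14.7%; median 0.04). Without each of the 6 arrays but clone 6 replicate 1, 3 fell. The falls of LDHB, GAPDH and EPAS1 held without each array, as did the 4 rises, so members of this list moved in both directions.

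Cell death regulators gave 5 lower of 19 (26.3%, against 14.7% of all genes; median -0.09), or 3 without clone 6 replicate 2. There was 1 higher without clone 6 replicate 1, and after renewed quantile normalization the median was 0.04. BCL2, which protects from apoptosis, fell by 0.88 (SE 0.14) and BAX, which promotes it, fell by 0.79 on the log2 scale (SE 0.18). Chaperone and sensor genes of the unfolded protein response gave 4 higher of 18 (22.2%, against 7.73% of all genes) and 2 lower (11.1%, against 14.7%). Their median was 0.07. The higher genes were CALR (0.53, SE 0.09), SDF2L1 (0.59), SEL1L (0.44) and the sensor kinase EIF2AK3 (0.61, SE 0.11). The lower count was 1 without any 1 parental array or clone 6 replicate 3 and 0 without clone 6 replicate 2, and the median was -0.02 without clone 6 replicate 1. Antigen presentation and immune ligands gave 5 lower (33.3%, against 14.7% of all genes) and 1 higher (6.67%, against 7.73%) of 15, with a median of -0.33. Of the falls, 2 held without each array, CD47 and the NKG2D ligand ULBP3 (-0.72, SE 0.16). The lower count was 3 without parental replicate 1 or 2 or clone 6 replicate 3 and 2 without parental replicate 3 or clone 6 replicate 2, and the rise was lost without parental replicate 2 or 3 or clone 6 replicate 1 or 3. Interferon-induced genes gave 5 lower (31.2%) and 1 higher of 16 (median -0.03). The lower count was 3 without parental replicate 1 or 2 or clone 6 replicate 2 and 2 without clone 6 replicate 3, where the median was 0.02. It was also above 0 without parental replicate 1 (0.01) and after renewed quantile normalization (0.02). MX2 rose by 1.60 (SE 0.20), whereas HERC5 (-1.47, SE 0.20) and HERC6 (-1.31, SE 0.16) fell, and these 3 calls held without each array. In the Wnt list 5 of 24 fell (20.8%) and 1 rose (median -0.17), and its share called, 25%, was near the 22.4% of all genes. The Wnt receptors FZD8 (-1.70, SE 0.17), FZD2 (-0.88, SE 0.11) and FZD6 (-0.83, SE 0.10) and the secreted inhibitor DKK1 (-1.11, SE 0.21) fell.

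**Figure D4:**
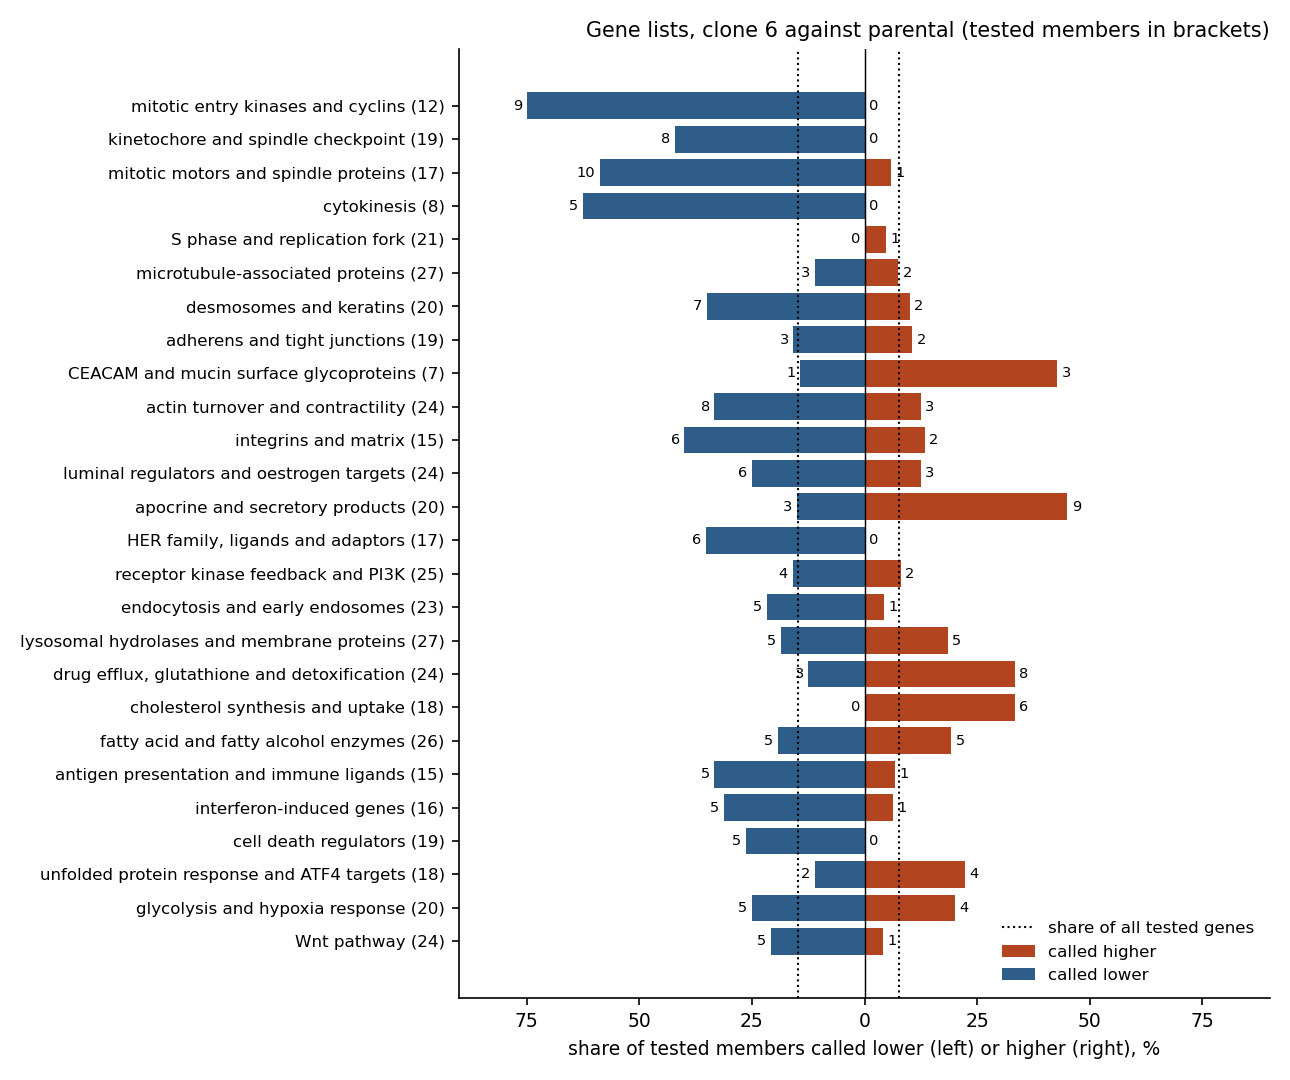
Share of tested members (percent, horizontal axis) called lower (left of 0) and higher (right of 0) in clone 6 for 26 gene lists; dotted lines mark the shares over all tested genes, 14.7% lower and 7.73% higher. The mitotic lists reach farthest to the lower side and the apocrine list to the higher side among lists of over 10 tested genes.

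MicroRNA genes are measured on these arrays through their precursor transcripts, not as mature microRNAs. Of 505 tested microRNA genes 56 (11.1%, against 22.4% of all genes) were called, 30 higher and 26 lower, and 24 of these calls held without each array (10 higher, 14 lower). Those described below are printed from RefSeq (GRCh38.p14) with the seed, bases 2 to 8, in capitals, since the seed is what pairs with target RNAs.
hsa-miR-454-3p: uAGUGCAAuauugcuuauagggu
hsa-miR-5047: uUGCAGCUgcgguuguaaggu
hsa-miR-4737: aUGCGAGGaugcugacagug
hsa-miR-21-5p: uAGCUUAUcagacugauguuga
hsa-miR-30a-5p: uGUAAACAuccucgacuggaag
hsa-miR-92b-3p: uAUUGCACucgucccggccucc
No seed is shared among these 6. MIR454, MIR5047, MIR4737 and MIR21 lie on chromosome 17, MIR30A on chromosome 6 and MIR92B on chromosome 1.

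MIR454 measured 4.28, 3.05 and 4.30 in clone 6, against 5.81, 5.08 and 5.84 in parental cells, without overlap (-1.70, SE 0.38, limma adjusted p 0.00377). MIR454 lay below the 40th percentile in clone 6 replicate 2 (3.05, against 3.61). Its host gene SKA2, a kinetochore protein, fell as well (-0.62, SE 0.10, limma adjusted p 0.000365). MIR5047 measured 7.88, 6.80 and 7.38 in clone 6, against 8.91, 8.91 and 9.15 in parental cells (-1.63, SE 0.22), and its host DDX5, an RNA helicase, fell by 0.37 on the log2 scale. MIR4737 measured 11.32, 11.15 and 11.10 in clone 6, against 11.96, 12.03 and 11.96 in parental cells (-0.79, SE 0.09, limma adjusted p 1.91e-05). It was set apart from the other clones, and so was its host HEATR6 (-0.59, SE 0.09). MIR21 measured 6.40, 5.28 and 5.70 in clone 6, against 6.75, 7.12 and 6.34 in parental cells, and these groups overlapped. Its call (-0.95, limma adjusted p 0.0108) ended without parental replicate 2 or clone 6 replicate 2, with -1.25 to -0.69 over the omissions, and its host VMP1 was not called (-0.15, limma adjusted p 0.256). MIR30A rose, at 5.15, 4.88 and 4.81 in clone 6, against 3.96, 4.18 and 3.77 in parental cells (0.98, SE 0.23). MIR92B also rose, at 6.24, 6.18 and 6.14 in clone 6, against 5.34, 5.64 and 4.85 in parental cells (0.91, SE 0.17). Both were separated from the parental arrays. Hosts were taken as genes whose span holds the microRNA gene, and strands were not compared, so some may lie on the opposite strand. Such a gene was tested for 22 of the 56. Of these 22, 8 were called, all of them lower, where 22.4% of all genes were called and 14.7% were lower. In 5 the microRNA gene was lower too. The hosts CHST11, STARD10 and MIR9-3HG fell, whereas MIR3922, MIR4692 and MIR9-3 rose.

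Calls were unevenly spread over the chromosomes. Genes lower in clone 6 made up 26% of the 615 tested on chromosome 12, 26.3% of the 430 on chromosome 8 and 24.2% of the 487 on chromosome 9, against 14.7% overall. Genes higher in clone 6 made up 17.1% of the 568 on chromosome 16, 14.4% of the 146 on chromosome 21, 14.1% of the 383 on chromosome 14 and 13.4% of the 575 on chromosome 7, against 7.73% overall. Chromosome 7 had the largest share called (34.3%), with 20.9% lower. After renewed quantile normalization it had 17.2% lower and 19.5% higher, chromosomes 8, 9 and 12 had 19.5%, 18.7% and 19.5% lower, and chromosomes 16, 21 and 14 had 23.6%, 18.5% and 20.4% higher. DNA was not measured, so copy number and transcription cannot be told apart.

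Genes set apart in clone 6 were uneven too. The lower ones included 28 of 487 on chromosome 9 (5.75%), 28 of 779 on chromosome 17 (3.59%) and 17 of 615 on chromosome 12 (2.76%), against 1.19% overall. Leaving out 1 array changed these counts. Chromosome 9 had 18 such genes without clone 6 replicate 1 or 2. Chromosome 17 had 15 without clone 6 replicate 2 or clone 3 replicate 2 and 18 without clone 6 replicate 3. Chromosome 12 had 8 and 9 without clone 6 replicates 2 and 3, and 11 without parental replicate 2 or clone 3 replicate 1. After renewed quantile normalization the counts were 23, 24 and 14 for chromosomes 9, 17 and 12. The genes set apart numbered 158 without clone 6 replicate 2 and 160 without replicate 3, against 235 with all arrays. Chromosome 9 held TNC and TSC1 and also SPIN1, a reader of histone marks, which measured 8.66, 8.32 and 8.47 in clone 6, against 9.45, 9.55 and 9.51 in parental cells. RALGDS, an exchange factor for Ral GTPases (-0.80, SE 0.12), and ALAD, an enzyme of haem synthesis (-0.73, SE 0.11), lie there as well. Chromosome 12 held LDHB, FAR2 and PKP2. The higher set-apart genes included 11 of 568 on chromosome 16 (1.94%, against 0.741% overall), or 17 after renewed quantile normalization. On the X chromosome 9 of 399 were higher and set apart (2.26%), GPC4 among them, 12 after that normalization and 5 without clone 6 replicate 2 or 3. On chromosome 16, CYLD, a deubiquitinase that limits NF-kappaB, measured 7.59, 7.36 and 7.60 in clone 6, against 6.15, 6.42 and 6.37 in parental cells (1.20, SE 0.12, limma adjusted p 3.08e-06). NOMO1, NOMO2 and NOMO3 are near-identical copies on chromosome 16, so their separate calls are uncertain.

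Neighbouring genes were also read in order, as the median difference of 11 adjacent tested genes. Over 11911 such windows the median was -0.02 and the central 95% lay between -0.38 and 0.23. These windows were ranked by their medians and carry no test. The lowest lay on chromosome 17 between MIR454 and MIR4737 (median -0.78, 7 lower and 1 higher). Its members are not all separate genes, since MIR4737 lies within HEATR6 and MIR21 within VMP1, which was not called. Another member, TBC1D3P1-DHX40P1, is a transcribed pseudogene named in part after DHX40, which is also in the window. In this window PRR11, a gene of cell cycle progression, measured 10.17, 10.35 and 10.07 in clone 6, against 11.04, 11.08 and 11.12 in parental cells (-0.88, SE 0.11), while YPEL2 rose (0.65, SE 0.15). Other low windows were a cluster of zinc finger genes on chromosome 19 from ZNF649 to ZNF480 (median -0.61, 8 lower) and chromosome 15 from TMOD3 to MNS1 (median -0.60, 6 lower), with PYGO1 at -1.42 and PRTG at -1.09. The highest lay on chromosome 16 from CEP20 to VPS35L (median 0.53, 7 higher), followed by chromosome 2 from RAB3GAP1 to KYNU (median 0.46, 5 higher and 1 lower), which holds CXCR4 and MCM6, and chromosome 7 from RNF32-DT to DYNC2I1 (median 0.44, 7 higher).

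Around GRB7 the 21 tested genes centred on it had a median of -0.15, with 7 lower and 1 higher. Of all tested genes 14.7% were lower and 7.73% higher. RAPGEFL1 fell by 1.00 (SE 0.21) and PGAP3 by 0.42 on the log2 scale, as did the Mediator subunit MED24. MED24 measured 10.76, 10.94 and 10.78 in clone 6, against 11.20, 11.20 and 11.23 in parental cells (-0.38), and it was set apart from the other clones without any 1 array.

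**Figure D5:**
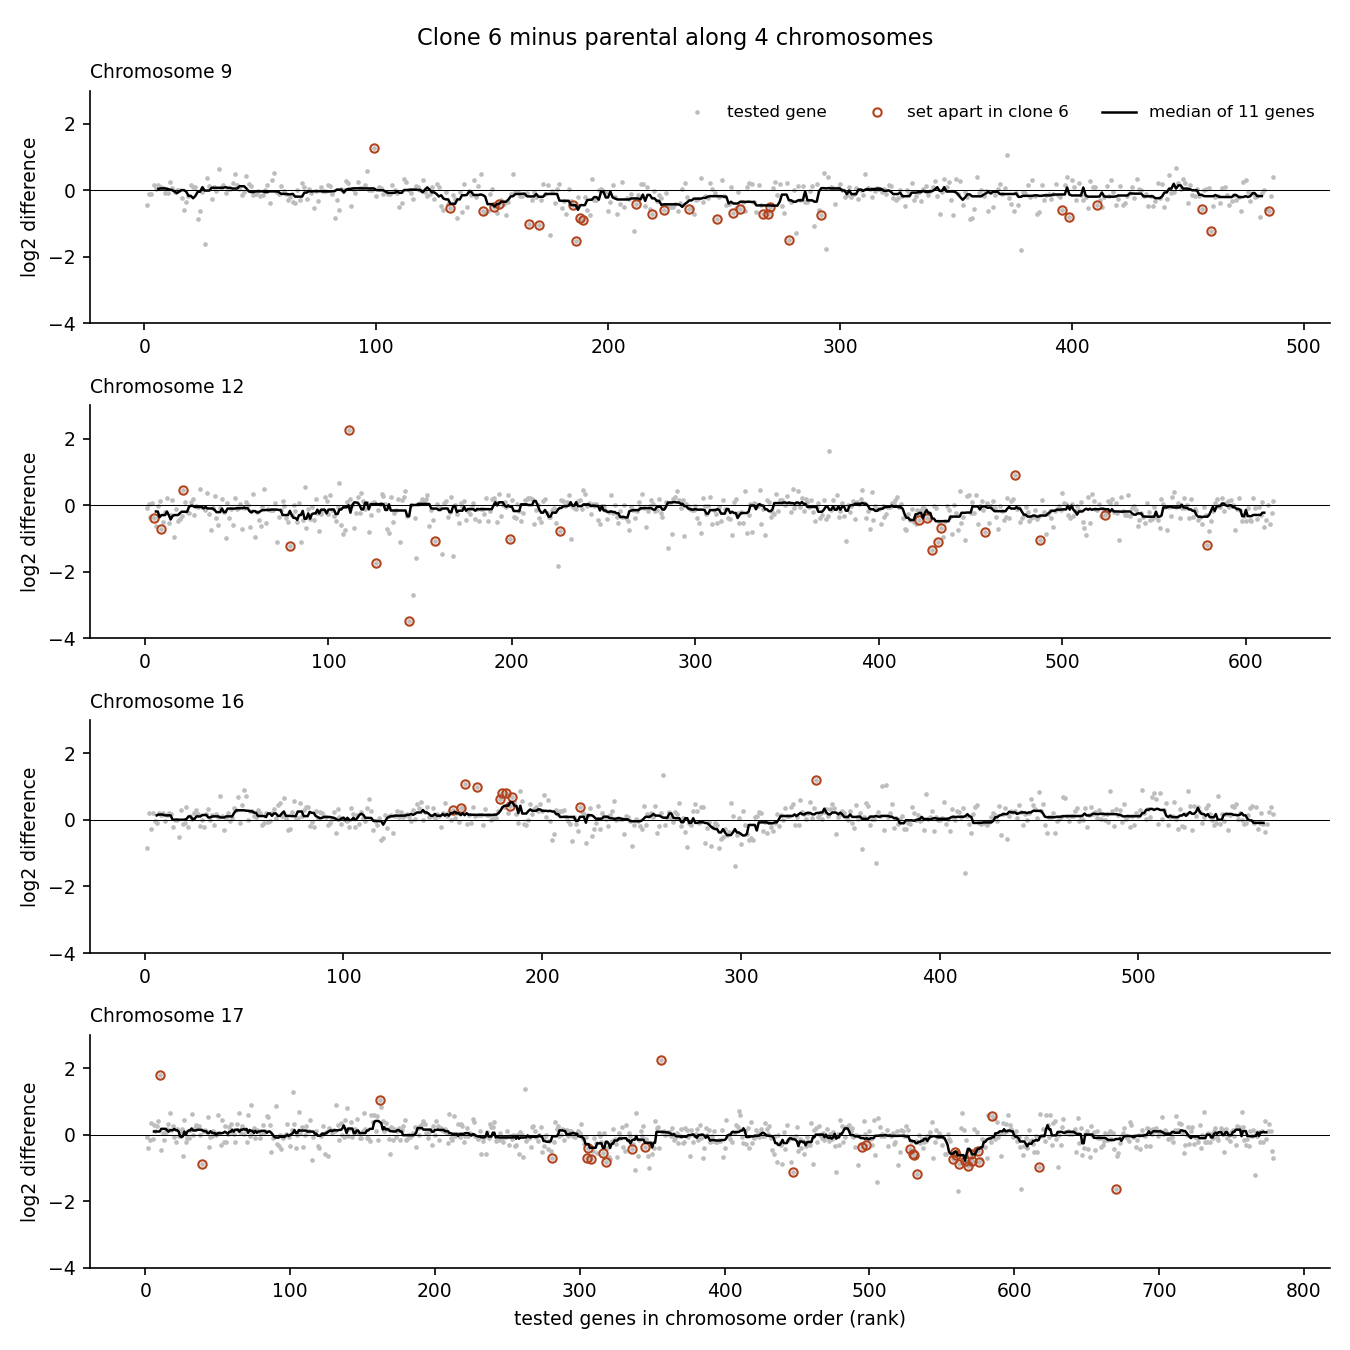
Difference of clone 6 minus parental (log2, vertical axis) for tested genes in their order along chromosomes 9, 12, 16 and 17 (horizontal axis), with a line for the running median of 11 genes and rings around genes set apart in clone 6. The line of chromosome 17 dips to -0.78 and that of chromosome 16 reaches 0.53.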

How the data were processed

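The values are log2 signals that the authors deposited, per the submitters' processing notes made with RMA and Affymetrix Expression Console 1.4.1 (the notes also list Transcriptome Analysis Console, without a stated role). Of 53617 probe sets 16098 (30%) had 1 gene symbol in GEO's platform annotation and 37519 had none; 0 had several. All 16098 matched RefSeq's GRCh38.p14 gene table by gene ID, the source of names and of the order of genes. Per symbol the probe set of highest mean over all 15 arrays was kept, and genes above the 40th percentile of their array in at least 3 arrays were tested. A linear model with 5 groups and 10 residual degrees of freedom was fitted in limma 3.58.1 (R 4.3.3), with Benjamini-Hochberg adjustment over all 12147 genes. The same fit was run on simulated arrays with independent normal noise, which tests the code and not whether the model suits these arrays. Figures were drawn in Python 3.11.15 with matplotlib 3.10.9. The number of arrays limits the precision.

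Genes were named by rule: up to 15 per direction with the largest change and no overlap, up to 8 per direction set apart by their smallest difference, up to 5 called members per list and direction, a fixed set, the extreme windows of 11 genes, and called microRNA genes. Genes outside it (S phase genes and other members named as not called, genes of set-apart chromosomes and windows, host genes, GRB7 neighbours, and GSN, CEACAM7, KRT18, PSAP and similar members) were chosen after their values were seen. The members, the 26 gene lists and the rules were chosen with earlier results of these data known, so patterns of the lists are descriptions. No pairing by replicate number was seen between clone 6 and parental arrays: same-numbered arrays had correlations of their deviations of -0.129, -0.061 and -0.011. Whether arrays of the same number share a spread over all 5 groups was not tested. Alternatives tried were other filters, renewed quantile normalization, median centring, the replicate number as a block, trend and robust variance, array weights, the mean of probe sets, only the arrays compared, a threshold of 0.01, and leaving out each array.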

Additional observations from a re-analysis of the deposited data

Results flagged for a closer look

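Some of the genes of largest change or distance differed between clone 6 and every other resistant clone, by limma with an adjusted p below 0.05 in each direct comparison. The values are clone 6 minus the nearest other clone, on the log2 scale. Higher in clone 6 were CEACAM6 (1.20), LRP2 (0.91), IQGAP2 (1.11), PAPSS2 (1.93), MGP (1.54), KRT23 (0.64), APOD (1.22), SRARP (0.95), NXN (1.36), LRRC31 (1.29), CDC42EP5 (0.89) and FMOD (1.00). Lower in clone 6 were FAR2 (-0.58), DSG2 (-1.30), ANKRD30A (-2.15), TNC (-1.69), CD47 (-1.36), ELF4 (-1.19), SP100 (-1.10), MBOAT1 (-1.03) and UNC13D (-1.03). CEACAM6 and KRT23 lost this status without single arrays, as given above, and the other genes kept it without any 1 of the 15.

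Probe sets with no gene symbol in the annotation used here also carried signal. In a fit of all probe sets, 21751 of them passed the dim filter and 3162 (14.5%) differed between clone 6 and parental cells, 1136 higher and 2026 lower. In the same fit 18.4% of 13053 named probe sets differed. Their genes are not named here.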

How the results depend on the processing

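No named gene that was called here or in an alternative changed direction between them. At an adjusted p below 0.01 the counts were 1556 genes against parental cells, 746, 687 and 522 against clones 1, 2 and 3, and 104 set apart, since the threshold is stricter. With only the 6 arrays compared in the fit, the counts against clones 1, 2 and 3 were 942, 767 and 703; the cause was not tested. Without 1 array the counts ran from 1889 to 2394 against parental cells, from 1014 to 1520, 910 to 1330 and 751 to 922 against clones 1, 2 and 3, and from 158 to 224 for genes set apart. The lowest against clone 1, 1014, came without clone 6 replicate 3. In the remaining alternatives each of these counts stayed within 1.5 times its value, the array weights giving 3637 against parental cells. Of the genes set apart, 41 of 90 higher and 62 of 145 lower stayed so without each of the 15 arrays. With the replicate number as a block, the counts were 2895 against parental cells and 1719, 1534 and 1256 against clones 1, 2 and 3. There were 275 genes set apart. Pairing by number was checked between clone 6 and parental arrays only. For named genes and tested list members, 8531 combinations of gene and alternative kept their status, called or not called. In 491 a call was lost and in 136 a call was gained. For gene lists, the number of called members stayed within 1.5 times its value in 383 combinations of list and alternative. It was smaller than that in 28 and larger in 5. The median of 10 of the 26 lists changed sign in some alternative, the largest of these being S phase (0.14), which was -0.05 without clone 6 replicate 3. Low signal limits the genes near the 40th percentile.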

Other observations

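Classes of transcript differed in how often they were called. Of 10391 protein-coding genes 23.9% were called in clone 6 (832 higher, 1652 lower), of 897 long noncoding RNA genes 12.5% (44 higher, 68 lower), and of 310 transcribed pseudogenes 19% (22 higher, 37 lower). TERC, the RNA template of telomerase, measured 9.02, 9.53 and 9.37 in clone 6, against 8.41, 8.22 and 8.32 in parental cells, without overlap (0.99, SE 0.16, limma adjusted p 0.000243). It was also higher than in clone 3 (1.20, limma adjusted p 0.000113), and it was not called against clone 1 (0.44) or clone 2 (0.13). TERC was chosen after its value was seen.

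EGR1, an early response gene, had uneven parental arrays, at 6.49, 9.31 and 7.31, and its difference of -2.03 ran from -2.64 to -1.23 without 1 array. Its other probe set differed by -0.42. PTCHD1, one of the genes with the largest falls (-2.26), likewise differed by -0.27 in its other probe set.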
